A study of Mus musculus with 7 samples.

Results

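Bins of 100 kb that were dense in distal open chromatin regions (OCRs) were examined in HPC7, a mouse hematopoietic progenitor cell line maintained in stem cell factor. The data are the ATAC-seq peak lists of 7 libraries, HPC7-1, HPC7-2 and HPC7-4 to HPC7-8, all labelled as replicates of the same cell line, with 1 condition. They came from separate culture batches, as the study states. Peaks of the 7 lists that overlapped by at least 1 bp were merged into 144931 OCRs, of which 66979 had a peak in every list. OCRs with a peak in every list that lay more than 3 kb from any GENCODE M21 transcript start are called shared distal OCRs here, and the autosomes held 39666 of them. A bin was called dense when it held 8 or more, and 970 of 24639 autosomal bins met this rule, a share of 3.94%. They held 9592 shared distal OCRs, 24.2% of all. The 1404 bins next to a dense bin that were not dense themselves are called adjoining, and the remaining 22265 are called other bins. The dense bins were selected on the peak calls of these libraries, so that their numbers of OCRs and the intensity of those OCRs are given as a description, with no test.

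ATAC-seq maps DNA that the Tn5 transposase can reach, which is mostly promoters and, away from genes' starts, regulatory elements such as enhancers. Enhancers are bound by transcription factors and act on promoters over a distance, and several of them often lie near the same gene. In blood progenitors, genes for lineage transcription factors and cytokine receptors are known for such groups of enhancers. An open region is not by itself an enhancer, and no measure of enhancer activity was used here.

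Peak intensity is the fold enrichment of reads at the summit over background, as the authors' peak caller gave it. The highest value was taken where several peaks of a library lay in the same OCR. The lists held between 84593 and 132852 peaks, with the fewest in HPC7-6 and the most in HPC7-1. Read depth is not in the lists, and fold enrichments were not scaled between libraries. Inside the lists, peaks of 3 libraries (HPC7-1, HPC7-2, HPC7-4) carry a name prefix VD, and those of the remaining 4 carry EtOH. The labels and the methods say nothing of these prefixes, so values within each are given beside the tests, and neither is treated as a condition. Of 10 hematopoietic progenitor markers, all 10 had a peak in 7 libraries within 1 kb of a transcript start of the gene, against 11937 of all 20807 protein-coding genes. Of 37 matched markers of other cell types, 25 had none in any library, against 7598 of all genes. Another 10 of the 37 had one in 7 libraries, among them the platelet genes Pf4 and Gp1ba, with median intensities of 104.5 and 104.6.

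The 4 bins whose strongest shared distal OCR carried a searched motif, among the first 6 by number of OCRs, had the following mm10 sequences 100 bases to either side of the summit, read from the plus strand. Capitals mark matches on either strand to AGATAA (bound by GATA factors), TGTGGT (RUNX), AGGAAGT (ETS), CAGCTG or CAGATG (E-boxes), TGANTCA (AP-1) and TGACAG (MEIS).
Gse1 intron, bin with 23 OCRs (chr8:120371838-120372038): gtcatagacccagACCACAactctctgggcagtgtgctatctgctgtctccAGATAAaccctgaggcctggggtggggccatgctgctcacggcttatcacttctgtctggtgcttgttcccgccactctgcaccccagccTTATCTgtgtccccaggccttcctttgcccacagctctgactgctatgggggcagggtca
Cmip intron, bin with 21 OCRs (chr8:117263565-117263765): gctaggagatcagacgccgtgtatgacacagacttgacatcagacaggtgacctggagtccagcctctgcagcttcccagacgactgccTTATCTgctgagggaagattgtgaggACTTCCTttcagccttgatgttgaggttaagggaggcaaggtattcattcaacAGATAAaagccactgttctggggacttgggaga
Runx2 intron, bin with 20 OCRs (chr17:44654621-44654821): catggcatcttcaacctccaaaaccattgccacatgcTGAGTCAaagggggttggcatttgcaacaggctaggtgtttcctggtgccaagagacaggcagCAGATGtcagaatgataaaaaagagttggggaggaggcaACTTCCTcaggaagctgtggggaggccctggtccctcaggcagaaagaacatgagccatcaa
Arid1b intron, bin with 20 OCRs (chr17:5099395-5099595): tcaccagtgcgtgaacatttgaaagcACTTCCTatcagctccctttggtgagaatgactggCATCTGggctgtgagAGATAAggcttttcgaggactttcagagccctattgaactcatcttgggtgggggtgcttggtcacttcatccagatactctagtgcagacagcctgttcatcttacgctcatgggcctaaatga

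The summit in Gse1 held 2 matches to AGATAA and 1 to TGTGGT, and that in Cmip held 2 to AGATAA and 1 to AGGAAGT. The summit in Runx2 held 1 ETS, 1 E-box and 1 AP-1 match, and that in Arid1b held 1 GATA, 1 ETS and 1 E-box match. Such letters are common: AGATAA was found in the same window of 17.7% of all shared distal OCRs, TGTGGT in 31.1%, AGGAAGT in 19.6%, CAGATG in 20.1% and TGANTCA in 13.1%. The strongest OCRs of the third and sixth bin, in introns of Lrrfip1 and Gse1, held none of these motifs.

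The densest bins lay for the most part inside long genes. The first, chr8:120300001-120400000, held 23 shared distal OCRs in introns of Gse1, a coiled-coil protein found with histone deacetylase complexes. Their summed intensity was lowest in HPC7-6 with 672, had a median of 869 and was highest in HPC7-5 with 1080 (mean 899 ± 147, SD, n = 7). No other dense bin had a higher mean sum. The intensity of the 23 OCRs, each averaged over the libraries, ran from 3.81 to 194 with a median of 18.2, and the strongest one was 9805 bp wide and made up 21.6% of the sum.

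Both bins beside it in Gse1 were dense as well. The bin with the Gse1 start, chr8:120200001-120300000, held 19 OCRs with a summed intensity of 652 ± 115, and the next one downstream of the first, chr8:120400001-120500000, held 17 with 436 ± 87.3. GENCODE M21 also lists Gm20388, a gene model of 4435 kb on chromosome 8 that spans all of them and crosses 19 dense bins, and it was left out where genes around a bin are named.

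Cmip, an adaptor protein of T cell signalling, held 2 of the first 12 bins. The bin with its start, chr8:117200001-117300000, held 21 OCRs, with a summed intensity between 277 and 500 and a median of 405. The one after it, chr8:117300001-117400000, held 18, with a sum between 148 and 266 and a median of 207. These bins held a like number of OCRs, but every library gave the bin with the start the higher sum.

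Genes of transcriptional regulators held 3 more. In Runx2, a RUNX factor best known from bone formation, chr17:44600001-44700000 held 20 OCRs with a summed intensity between 361 and 644 and a median of 513. Arid1b, a subunit of the SWI/SNF chromatin remodeling complex, held 20 in chr17:5000001-5100000, between 170 and 304 with a median of 281. Zmiz1, a transcriptional coactivator, held 19 in chr14:25500001-25600000, between 247 and 424 with a median of 373. The sum in Runx2 was above that in Arid1b in every library.

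The remaining 4 were divided between other long genes and intervals with no protein-coding gene. Lrrfip1, a nucleic acid binding protein, held 21 OCRs in chr1:91000001-91100000 with a sum of 381 ± 79.5, and Prkce, a protein kinase C, held 19 in chr17:86300001-86400000 with a sum of 290 ± 53.7. The interval between Irf2bp2, a transcriptional corepressor, and Tomm20, a receptor for mitochondrial protein import, held 18 in chr8:126800001-126900000, with a sum of 505 ± 69.3. The nearest protein-coding starts were 206 kb and 45.8 kb away. The interval before Runx3, a RUNX factor of lymphocytes and other blood cells, held 18 in chr4:135000001-135100000, with a sum of 315 ± 70.5, and ended 20.7 kb before the start of Runx3.

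**Figure D1:**
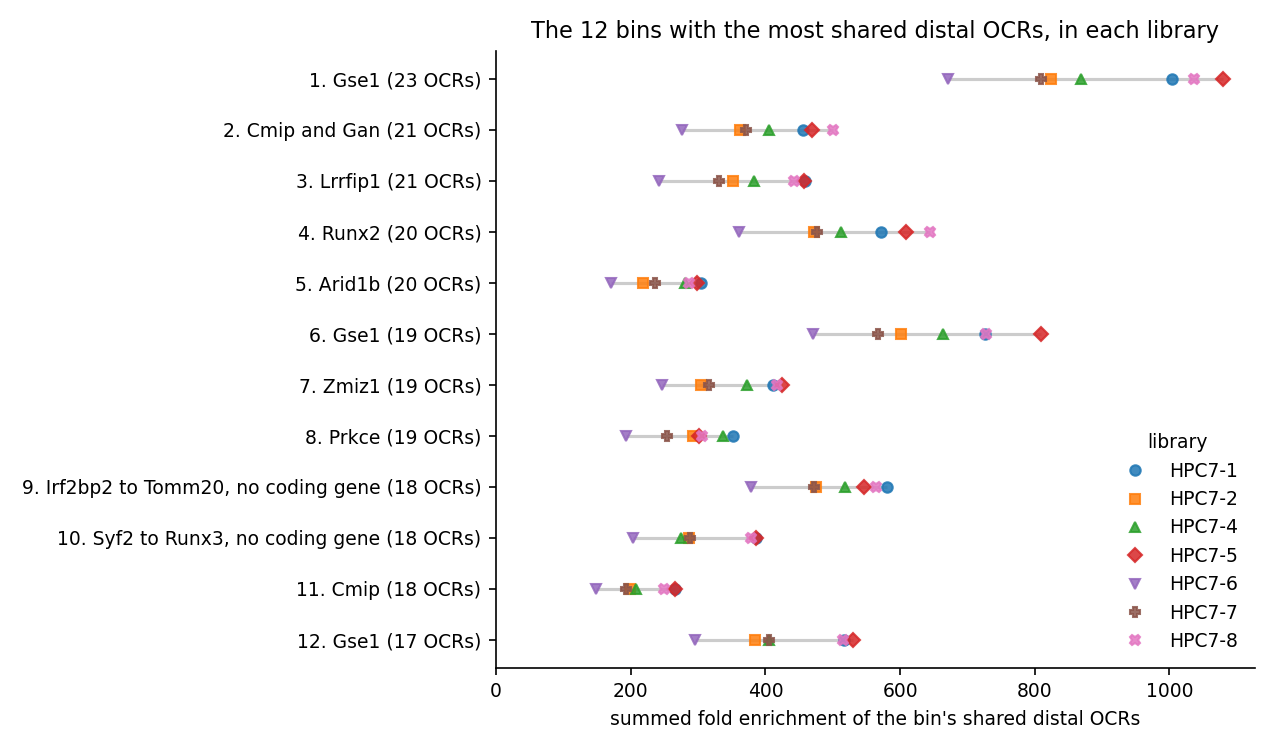
Summed fold enrichment of the shared distal OCRs of the 12 bins with the most of them (horizontal axis), 1 marker for each of the 7 libraries and a grey line from the lowest to the highest. Bins are named by the protein-coding genes that cross them or, where there is none, by the nearest starts; HPC7-6 gave the lowest value in all 12, and the first bin, in Gse1, lay between 672 and 1080.

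A high summed intensity did not need many OCRs. The second highest sum, 801 ± 104, was that of chr17:83900001-84000000, with 14 OCRs and no protein-coding gene. It lies between Haao, an enzyme of tryptophan degradation, and Zfp36l2, an RNA-binding protein that promotes mRNA decay. The fourth, 647 ± 99.1, was chr1:86400001-86500000 with 13 OCRs and the starts of Nmur1, a neuromedin U receptor, and Tex44. The fifth, 578 ± 95.3, was the bin after it, with 10 OCRs and the starts of Cops7b, Pde6d and Ptma.

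The promoters in these bins were unlike each other. Ptma, which encodes prothymosin alpha, had a promoter intensity between 217 and 358 with a median of 272 over the 7 libraries. Cops7b, a COP9 signalosome subunit, and Pde6d shared a promoter OCR with a median of 167. Nmur1 had no peak within 1 kb of its gene start in any library, but one with a median of 36.6 at another of its transcript starts, and Tex44 had none at either.

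The strongest shared distal OCRs of the dense bins are shown next, in the same way, because their sequences differ in kind.
Filip1l and Cmss1 intron (chr16:57391414-57391614): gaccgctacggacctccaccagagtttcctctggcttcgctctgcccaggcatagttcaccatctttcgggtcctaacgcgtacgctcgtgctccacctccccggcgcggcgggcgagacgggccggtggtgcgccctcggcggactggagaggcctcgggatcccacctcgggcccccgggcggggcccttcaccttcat
Between Haao and Zfp36l2 (chr17:83990584-83990784): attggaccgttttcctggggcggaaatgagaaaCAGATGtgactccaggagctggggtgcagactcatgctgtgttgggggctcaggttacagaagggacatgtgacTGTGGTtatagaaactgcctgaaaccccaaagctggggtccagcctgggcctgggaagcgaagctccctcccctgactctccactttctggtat
Btbd9 intron (chr17:30519009-30519209): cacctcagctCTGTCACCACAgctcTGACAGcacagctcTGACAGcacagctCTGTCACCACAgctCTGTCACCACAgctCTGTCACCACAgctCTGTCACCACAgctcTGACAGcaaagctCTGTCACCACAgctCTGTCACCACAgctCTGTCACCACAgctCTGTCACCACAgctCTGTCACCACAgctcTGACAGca

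The strongest, in introns of Filip1l and Cmss1, had an intensity between 322 and 461 with a median of 339. Its window was 69.7% G or C and held none of the 8 motifs searched. It made up 81.1% of the summed intensity of its bin, the highest such share among the dense bins, whose median was 32.3%. The second, between Haao and Zfp36l2, lay between 253 and 389 with a median of 301 and held 1 TGTGGT and 1 CAGATG.

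The third, in an intron of Btbd9, lay between 184 and 433 with a median of 304. Its window is a tandem repeat, in which TGTGGT matched 10 times and TGACAG 14 times on 1 strand or the other, with neighbouring matches overlapping by their shared base. Whether reads of other copies of a sequence were placed there, or at the strongest OCR in Filip1l and Cmss1, cannot be told from the lists. No regions were left out here for this reason. The fourth was in an intron of Gse1, between 194 and 355 with a median of 270, and the fifth lay 3.70 kb from a transcript start near Zfp36l2, between 149 and 347 with a median of 235.

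Over all 970 dense bins the number of OCRs ran from 8 to 23 with a median of 9, and 37 bins held 15 or more. The mean summed intensity ran from 47.3 to 899, with a median of 181. At the threshold itself, 324 bins held 8 OCRs and 467 held 7. Among those with 8 the sum was highest in the bin with the start of Filip1l (463 ± 68.9) and lowest in the bin with the start of Agpat5 (47.3 ± 7.84), with a median of 136. Among those with 7 it was highest in the bin with the starts of Scd2 and Scd3, which encode fatty acid desaturases (551 ± 122), and lowest in the bin with the starts of Lat2, Eif4h and Limk1 (35.3 ± 4.94), with a median of 115. Bins on either side of the threshold overlapped over most of their range.

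The libraries ordered the dense bins alike. The Spearman correlation of the summed intensities between libraries, over the 970 bins, ran from 0.951 to 0.989 over 21 pairs with a median of 0.979, as a description, since the bins share their libraries and were selected on peaks in all of them. After each library was scaled to its own median sum over the dense bins, the coefficient of variation of a bin had a median of 6.44%. It was highest, 31.4%, in chr7:98900001-99000000 within Uvrag, a gene of autophagy. There the sums were 171, 128 and 133 in the libraries with the VD prefix (HPC7-1, HPC7-2, HPC7-4, in this order) and 103, 52.1, 64.6 and 95.7 in those with the EtOH prefix (HPC7-5 to HPC7-8). These sums are not scaled, and the bin was chosen for its variation. How the prefixes compare over all 970 bins was not examined. Among the steadiest was the bin of Notch2, a Notch receptor, with 1.68%.

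Around dense bins, shared distal OCRs were more frequent than elsewhere. Bins 100 kb away, dense ones included, held a mean of 5.12, those 200 kb away 4.03 and those 300 kb away 3.38. Those 1000 kb away held 2.29, against 1.61 over all autosomal bins. A bin was counted once for each dense bin at that distance. At 100 kb 23.4% were dense themselves, and adjoining bins, which are not dense, held a mean of 3.44. Of the dense bins, 391 (40.3%) had a dense neighbour. They fell into 743 runs, of which 579 were single bins, 120 were pairs, 28 had 3 bins, 13 had 4 and 3 had 5.

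The longest runs covered 500 kb. That of Gse1, chr8:120200001-120700000, held 75 shared distal OCRs and also the starts of Gins2, a replication factor, and Cox4i1, a subunit of cytochrome c oxidase. That of Irf2bp2, Tomm20 and Rbm34, chr8:126500001-127000000, held 68. That of chr1:191100001-191600000 held 47 and had 7 protein-coding starts, among them that of Atf3, a transcription factor of the stress response. The runs of 4 bins with the most OCRs were in Arid1b with 64 and around Cmip with 61.

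Promoters within these runs differed widely in intensity. Irf2bp2 had a promoter intensity between 160 and 290 with a median of 221, Gins2 between 237 and 351 with a median of 285, and Tomm20 between 122 and 196 with a median of 162. Atf3 had a weak peak at its gene start in 1 library alone, and a peak in all 7 at another transcript start, with a median of 28.2.

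**Figure D2:**
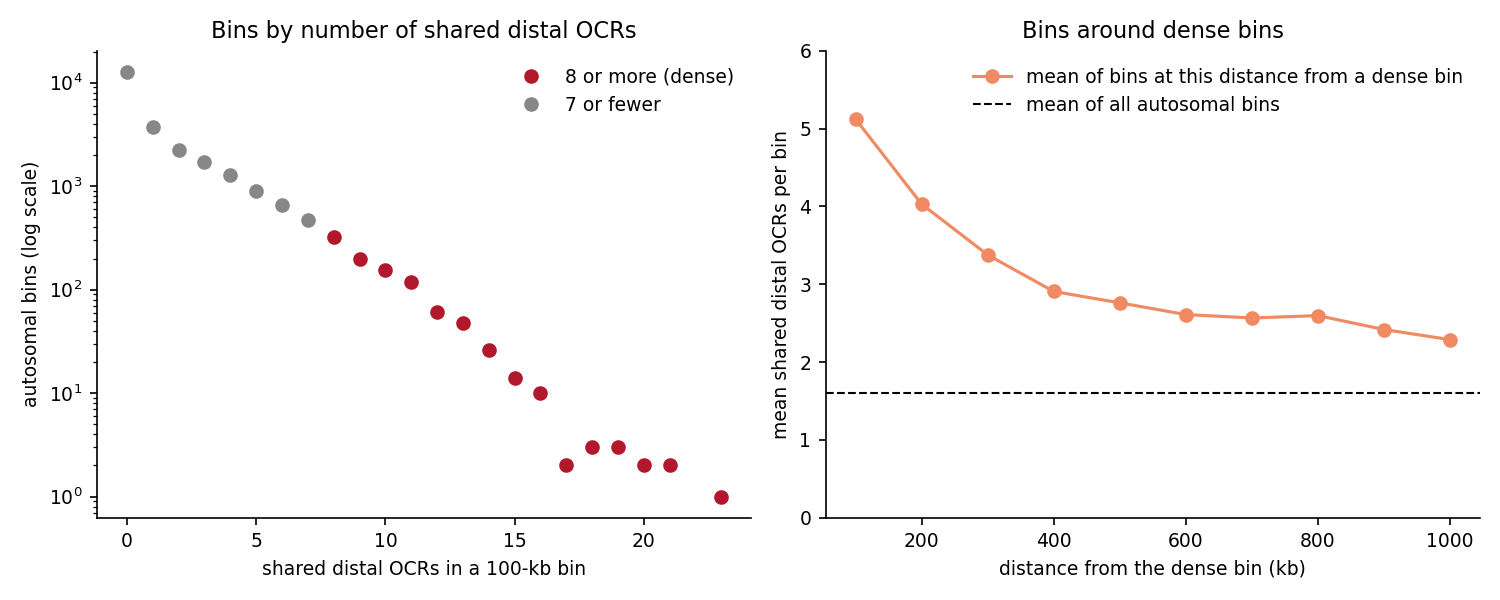
Left, the number of autosomal 100-kb bins (log scale) with each number of shared distal OCRs, in red where the bin was dense. Right, the mean number of shared distal OCRs per bin by distance from a dense bin in kb, over all bins at that distance, dense ones included. It falls from 5.12 at 100 kb to 2.29 at 1000 kb, above the mean of all bins (dashed, 1.61).

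Dense bins were unevenly spread over the chromosomes. Chromosome 17 had 87 among 950 bins (9.16%), chromosome 8 had 98 (7.57%), chromosome 11 had 75 (6.14%) and chromosome 1 had 118 (6.04%), and the lowest share was 2.19% on chromosome 3. Chromosomes 1, 8 and 17, the 3 with the most dense bins by number though not by share, held 303 of the 970 (31.2%). They had 17.1% of the bins and 21.6% of the shared distal OCRs. The number of chromosome copies in these cells was not examined, and its part in the counts was not tested. Without these 3 chromosomes 667 dense bins were left.

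The dense bins had more G and C and more genes than other bins. Median GC content was 46.0% in dense, 44.9% in adjoining and 41.0% in other bins. The mean number of protein-coding starts per bin was 1.12, 1.48 and 0.79, and 369 dense bins, 456 adjoining and 13729 other bins had none. Of the 369, 284 lay inside or touched a protein-coding gene and 85 did not. The median share of a bin more than 3 kb from every transcript start, where a distal OCR can lie, was 82.2% in dense, 76.4% in adjoining and 88.6% in other bins. Other bins thus had the most room for distal OCRs, although 607 of them consist of bases not known in the assembly.

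Shared distal OCRs of dense bins were wider and a little more intense than those of other bins. Their median width was 830 bp, against 726 bp in adjoining and 623 bp in other bins, and 8.89% were wider than 2 kb, against 5.38% and 3.39%. The median gap to the next one was 4321 bp, against 10820 bp in other bins, which follows from the rule that chose the bins. By place, 56.7% were intronic in dense bins, 49.4% in adjoining and 47.0% in other bins, and 34.2%, 39.1% and 43.0% were intergenic. Without Gm20388, the intronic shares were 55.9%, 48.8% and 46.9%.

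The median intensity of shared distal OCRs was 10.2 ± 1.93 in dense, 9.67 ± 1.79 in adjoining and 9.02 ± 1.56 in other bins (SD, n = 7). The ratio of dense to other bins ran from 1.07 in HPC7-4 to 1.20 in HPC7-1, with a mean of 1.13 ± 0.0472. It was above 1 in all 7, and the difference on the log10 scale was 0.0531 ± 0.0181. The prefix VD gave differences between 0.0273 and 0.0795 and the prefix EtOH between 0.0404 and 0.0726.

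When the bins were chosen from the other 6 lists and the intensity was read in the library that was left out, the log10 difference ran from 0.0273 to 0.0872 and was above 0 in all 7. Of the OCRs so chosen in dense bins, a median of 99.2% had a peak in the library left out, with 90.9% as the lowest share. In other bins the median was 99.5% and the lowest 89.6%. The lowest share was that of HPC7-6 in both, which had the shortest list.

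The difference did not hold on every chromosome. On the log10 scale it was 0.0050 ± 0.0275 on chromosome 17, above 0 in 3 of 7 libraries, 0.0167 ± 0.0305 on chromosome 8, above 0 in 4, and 0.00073 ± 0.0223 on chromosome 6, above 0 in 4. On chromosome 13 it was above 0 in 6 libraries, and on the other 15 chromosomes in all 7. Chromosomes 17 and 8, with the highest shares of dense bins, were thus among those with the least difference. When all shared distal OCRs were ranked by intensity and cut into 10 equal classes, dense bins held 34.5% of the strongest class and 25.4% of the weakest, but between 21.0% and 22.2% of the 5 above the weakest. By number of OCRs in the bin, the median intensity was 9.54 ± 1.75 in bins with 4 to 5, 9.91 ± 1.86 with 6 to 7, 10.4 ± 1.87 with 8 to 9 and 9.31 ± 1.85 with 15 or more, so that the densest bins were not the most intense. Of the OCRs in dense bins 9.55% had a mean fold enrichment over 50, against 5.04% in other bins.

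**Figure D3:**
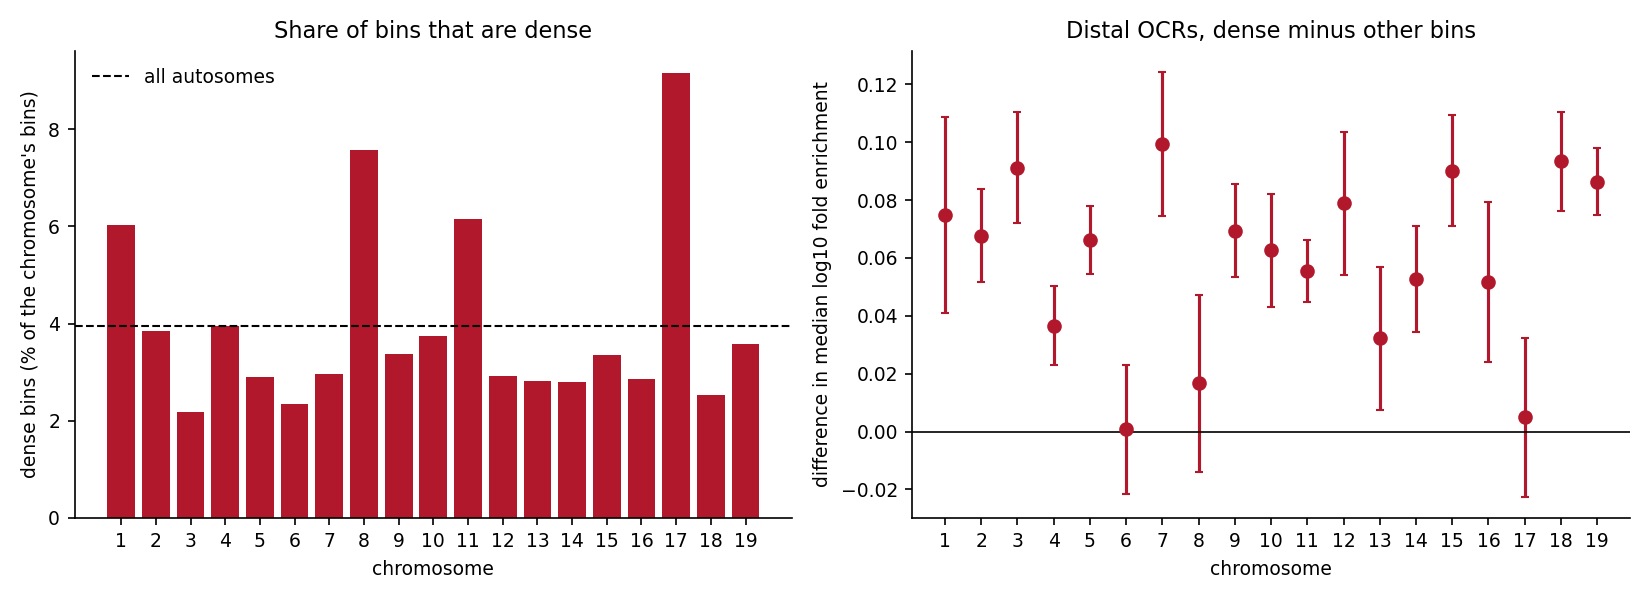
Left, the share of each autosome's 100-kb bins that were dense, with the share over all autosomes dashed (3.94%). Right, the difference in median log10 fold enrichment of shared distal OCRs between dense and other bins of the same chromosome, as the mean and SD of 7 libraries; the SD crosses 0 on chromosomes 6, 8 and 17.

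Of the motif letters searched near the summits, the 7 other than CTCF were found at nearly the same rate in dense and other bins taken as a whole. AGATAA was found in 18.1% of the shared distal OCRs of dense bins and 17.7% of those of other bins, TGTGGT in 31.0% and 31.1%, AGGAAGT in 19.6% and 19.6%, and CAGATG in 20.5% and 20.1%. The other 3 were a little more frequent in dense bins: CAGCTG with 16.4% and 14.8%, TGANTCA with 13.6% and 12.9%, and TGACAG with 22.5% and 21.1%. The share for CAGCTG was higher in dense bins on 15 of 19 chromosomes. Within 6 classes of GC content of the window, however, it was higher in 3 and lower in 3, among them 50% to 55% GC with 18.2% against 19.2%. AGATAA was higher in dense bins in all 6 classes, with 21.3% against 18.6% at 45% to 50% GC and 15.7% against 12.8% at 50% to 55%, and TGACAG was higher in all 6 as well.

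The core consensus of CTCF, a protein that binds at the borders of chromatin loops, was found in 3.96% in dense, 6.56% in adjoining and 8.36% in other bins, and in 7.07% of all. It was lower in dense than in other bins on all 19 chromosomes. The same order held among OCRs at or under the median intensity, with 2.87% and 8.68%, and among those above it, with 4.89% and 8.01%. It also held in all 6 classes of GC content. The gap was narrowest under 40% GC, with 3.65% against 5.07%, and widest at 50% to 55% GC, with 4.13% against 9.67%. These are counts of letters, not of bound protein, and were not tested.

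**Figure D4:**
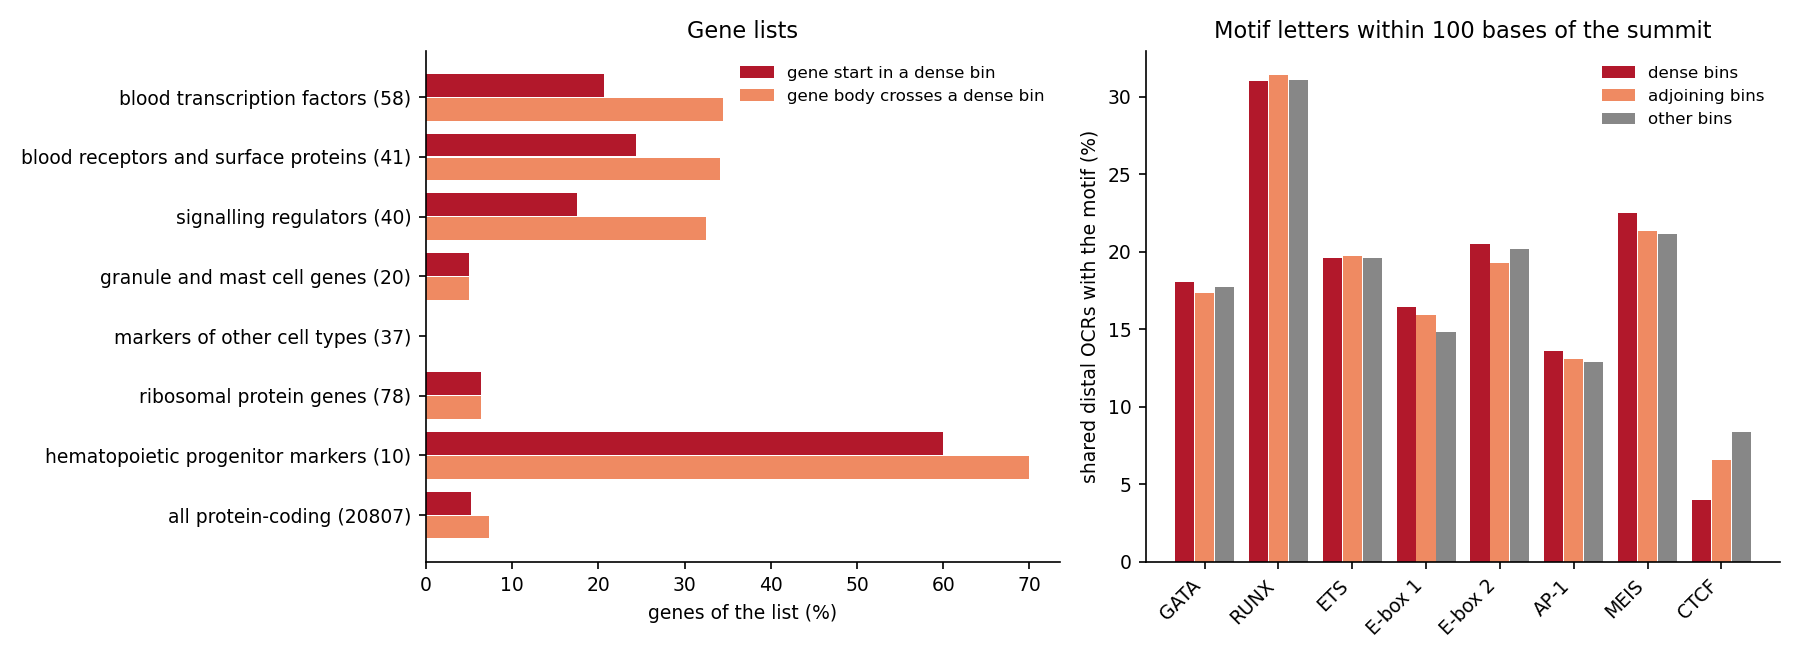
Left, the share of each gene list (number of matched genes in brackets) with the gene start in a dense bin or with a body that crosses one, above the share of all protein-coding genes at the bottom (5.21% and 7.33%). Right, the share of shared distal OCRs with each motif near the summit by class of bin, with CAGCTG as E-box 1 and CAGATG as E-box 2; CTCF falls from 8.36% in other to 3.96% in dense bins.

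The genes of the dense bins included many regulators of blood cells. Of 20807 autosomal protein-coding genes, 1085 (5.21%) had their start in a dense bin and 1526 (7.33%) crossed one. Among 58 matched blood transcription factors 12 (20.7%) had their start there and 20 (34.5%) crossed one. Among 41 blood receptors and surface proteins these were 10 (24.4%) and 14 (34.1%), and among 40 signalling regulators 7 (17.5%) and 13 (32.5%). The lists were compiled by hand with earlier results of these data known, and gene length and GC content, which differ between lists, were not matched.

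Lists of other kinds stood nearer the background. Of 37 markers of other cell types none started in or crossed a dense bin, of 20 granule and mast cell genes 1 did (Srgn), and of 78 ribosomal protein genes 5 (6.41%) did. Of the 10 progenitor markers 6 started in one and 7 crossed one, but all of these also belong to the first lists.

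Some of the listed factors known from stem and progenitor cells had their starts in dense bins, each in a separate one, and others did not. Lyl1, Spi1, Mecom, Hlf and Gfi1b neither started in nor crossed a dense bin. Myb started in an adjoining bin and crossed no dense one. Runx1, required for the emergence of blood stem cells, had its start in a bin with 11 shared distal OCRs, and its promoter intensity ran from 36.0 to 209 with a median of 145. Tal1 and Lmo2, which act in 1 complex, lay in bins with 8 and 11. The Tal1 promoter ran from 65.9 to 105 with a median of 89.2. The Lmo2 gene start ran from 14.4 to 22.1 with a median of 17.1, but another Lmo2 transcript start from 69.6 to 136 with a median of 104.

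Gata2, a GATA factor of stem and progenitor cells, had its start in a bin with 8. No library had a peak within 1 kb of the annotated gene start, whereas the strongest of its transcript starts ran from 39.0 to 62.5 with a median of 52.1. Fli1, an ETS factor, lay in a bin with 13 and had a promoter intensity between 33.5 and 68.5 with a median of 56.1. Meis1, a homeobox factor, and Erg, an ETS factor, crossed dense bins with 14 and 9 but started in adjoining ones, and Erg was open at a transcript start other than the gene start, with a median of 45.4.

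Some of the other members are factors of later lineages. Ikzf2 and Runx3, factors of lymphocytes, had their starts in bins with 9 and 8, with medians of 99.7 and 173. Zfpm1, the GATA cofactor FOG1, lay in a bin with 9 and had a median of 187, and Cebpb, a factor of myeloid cells, in a bin with 8 and had a median of 28.9. Klf2 lay in a bin with 10 and had the weakest promoter of the 12 apart from Gata2 at its gene start, between 7.57 and 15.9 with a median of 9.11. Etv6, an ETS repressor, and Hhex, a homeobox factor, completed the list, with medians of 139 and 153. Thus 11 of the 12 were open in all 7 libraries at the gene start. This was so for 52.9% of all protein-coding genes, for 79.8% of those in dense bins and for 49 of the 58 listed factors wherever they lay, so that the count is near what genes of dense bins and of the list show in general.

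Each of the 10 receptors and surface proteins was open at the gene start in all 7 libraries, as were 36 of the 41 on the list and 79.8% of all genes in dense bins. Cd34, the sialomucin used to mark progenitors, had a median promoter intensity of 79.9 in a bin with 9, Cd44, a hyaluronan receptor, 95.7 in a bin with 11, and Cxcr4, the receptor for the niche chemokine CXCL12, 94.7 in a bin with 8. Spn, the sialophorin CD43, lay in the bin with the most, 14, and had a median of 49.2. Ptprc (CD45), Cd48, Il4ra, Tgfbr2 and Itgb3 had medians from 32.4 to 89.6.

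Among the signalling regulators, Inpp5d, the lipid phosphatase SHIP1, lay in a bin with 13 and had a median of 85.3. Socs3 and Socs1, feedback inhibitors of cytokine receptors, lay in bins with 13 and 8, with medians of 64.5 and 100.1, and Jak1, a kinase that such receptors use, in a bin with 11 with a median of 100.3. Spred2, an inhibitor of Ras signalling, had a median of 89.7 and Sos1, a Ras activator, 80.4. Lcp2, the adaptor SLP-76, lay in a bin with 12 but had a median of 10.1 at its gene start. Srgn, the proteoglycan of granules, had no peak at its gene start and a median of 43.7 at another transcript start.

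Promoters were open more often in dense bins than elsewhere, a measure that the choice of bins did not use, since distal OCRs lay more than 3 kb from any start. A promoter was called open in a library when a peak overlapped the 1 kb on either side of the gene start. The share open was lowest in HPC7-2 with 80.7%, had a median of 81.7% and was highest in HPC7-1 with 84.6% for the 1085 genes of dense bins. It ran from 71.8% to 76.3% for 2079 genes of adjoining bins and from 50.4% to 53.7% for 17643 genes of other bins. The classes did not overlap.

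The mean shares were 82.0 ± 1.31%, 73.2 ± 1.59% and 51.7 ± 1.13% (SD, n = 7). Dense bins exceeded other bins by 30.3 ± 0.411 percentage points and adjoining bins by 8.76 ± 0.399, in each of the 7 libraries (two-sided exact permutation of signs over libraries, p = 0.0156, the smallest that 7 libraries allow). Of the 4 promoter comparisons made, all gave this p, and the Benjamini-Hochberg adjusted value is the same. The difference from other bins was between 29.9 and 30.9 points with either prefix, and that from adjoining bins between 8.32 and 9.13 with VD and between 8.27 and 9.27 with EtOH. The test shows that the libraries share a direction, not that genes are independent.

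CpG content moved with this result. Of dense-bin promoters 64.4% had an observed to expected CpG ratio over 0.6, against 58.4% in adjoining and 44.8% in other bins. Among promoters over that ratio 94.0 ± 0.153% were open in dense bins, 91.2 ± 0.374% in adjoining and 81.1 ± 0.371% in other bins. Among the rest these were 60.2 ± 3.48%, 48.0 ± 3.37% and 27.7 ± 1.76%. The order of the 3 classes was thus the same on both sides.

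The share open was higher in bins with more OCRs over most of the range. It was 21.6 ± 0.787% in bins with none, 52.2 ± 1.24% with 1, 74.4 ± 1.54% with 4 to 5, 78.3 ± 1.81% with 6 to 7, 81.6 ± 1.42% with 8 to 9, 81.5 ± 1.24% with 10 to 11 and 87.3 ± 1.33% with 12 to 14. In bins with 15 or more it was 61.2 ± 3.82%, a value that rests on 14 genes. No step in this share marked the threshold of 8.

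Open promoters of dense bins were also somewhat more intense. Their median fold enrichment was 88.8 ± 14.8, against 77.5 ± 13.1 in adjoining and 76.6 ± 13.02 in other bins, and the spread between libraries was larger than the difference until each library was compared with itself. Within libraries the ratio of dense to other bins ran from 1.13 to 1.18 with a mean of 1.16 ± 0.0157, and that of dense to adjoining bins from 1.13 to 1.16 with a mean of 1.15 ± 0.00976. On the log10 scale the differences were 0.0642 ± 0.00592 and 0.0591 ± 0.00371, above 0 in each library (p = 0.0156 for both by the same exact permutation). Within VD they ran from 0.0529 to 0.0687 and from 0.0591 to 0.0624, and within EtOH from 0.0617 to 0.0703 and from 0.0520 to 0.0630. By number of OCRs in the bin, median promoter intensity did not rise steadily. It was 81.6 ± 13.9 with 4 to 5, 77.05 ± 12.2 with 6 to 7 and 89.1 ± 14.9 with 8 to 9. With 10 to 11 it was 90.9 ± 16.3, with 12 to 14 it was 81.7 ± 14.3, and with 15 or more 118 ± 16.15, on 14 genes.

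The differences in promoter intensity depended on the choice of bins. With bins moved by 50 kb, the difference from other bins fell to 0.0110 (above 0 in 6 of 7) and that from adjoining bins was -0.0162 (above 0 in 0 of 7, exact permutation p = 0.0156), the opposite direction. That from other bins was 0.0198 at more than 10 kb from a transcript start (above 0 in 6 of 7), 0.0361 with 12 or more OCRs and 0.0370 without chromosomes 1, 8 and 17, the last 2 above 0 in each library. The difference from adjoining bins was also lost when distal meant more than 10 kb from a transcript start (-0.00985, exact permutation p = 0.188) and in bins with 12 or more OCRs (0.00560, exact permutation p = 0.250). It was smaller, though above 0 in each library, with lists cut to equal length (0.0337) and where peaks had to cover 50% of an OCR (0.0302). The shares of open promoters kept their differences with moved bins, at 31.7 and 9.41 points. The difference from adjoining bins was smaller, though above 0 in each library, at more than 10 kb (2.30 points), with 12 or more OCRs (5.35) and where peaks had to cover 50% of an OCR (5.84), and that from other bins was 23.91, 30.02 and 26.95 points.

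**Figure D5:**
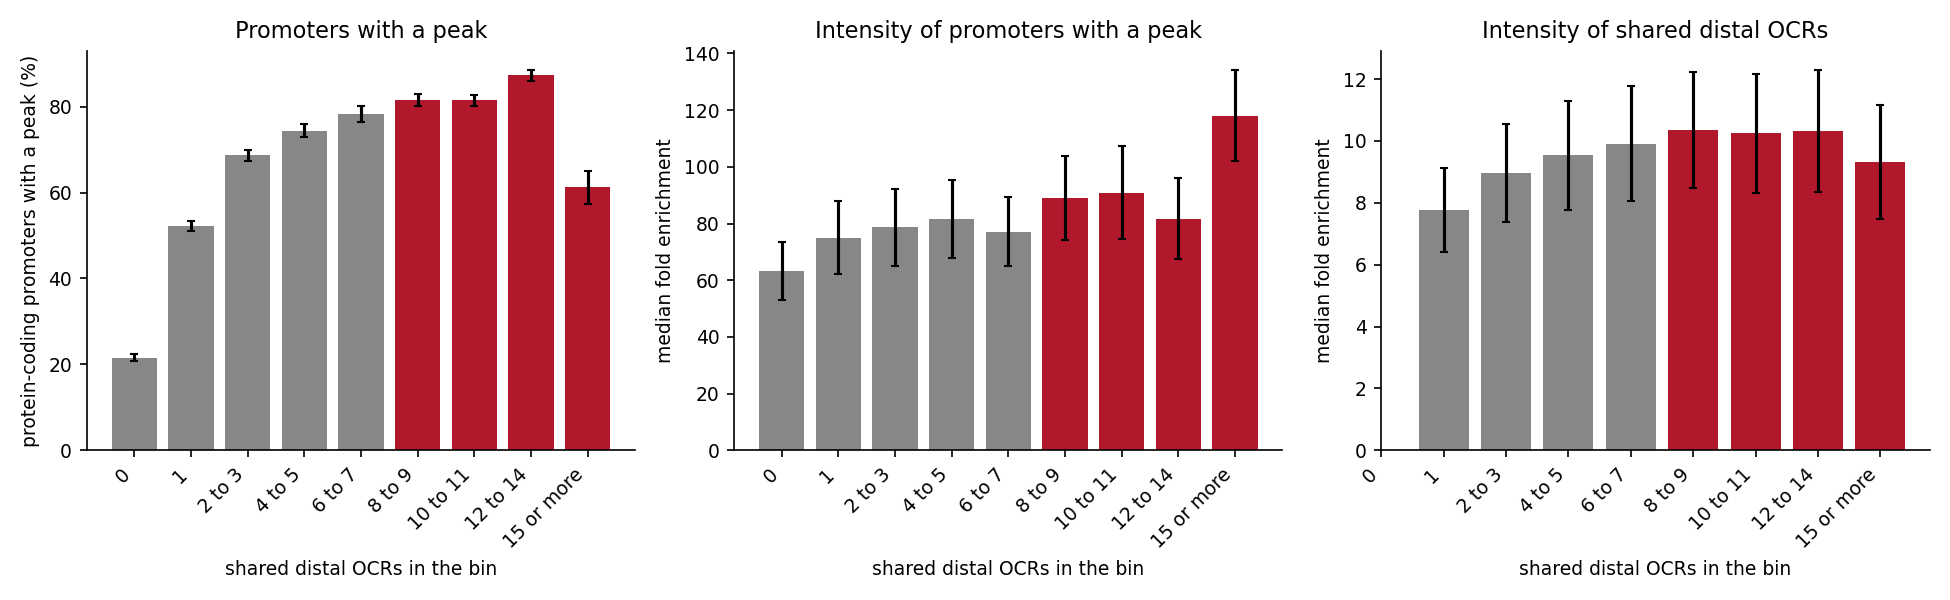
Values by the number of shared distal OCRs in the bin, as the mean and SD of 7 libraries, with dense bins in red: left, the share of protein-coding promoters with a peak within 1 kb of the gene start; middle, the median fold enrichment of those promoters; right, the median fold enrichment of shared distal OCRs. The share of open promoters rises from 21.6% to 87.3% at 12 to 14 OCRs, and the last bar of the left and middle plots rests on 14 genes.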

How the data were processed

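Bulk ATAC-seq of 7 HPC7 libraries was analysed from the deposited peak lists. The authors removed adapters with Cutadapt, used BWA-mem to align to mm10, and ran MACS2 on every library by itself. Versions and options are not given in the sources used here. A row of a deposited list holds the fold enrichment of a peak (a ratio), used as peak intensity, the -log10 p and -log10 q, a score and a summit. Read depth is not in the lists, and the number of libraries sets the precision. Chromosome names and lengths of GRCm38 were used for mm10, with GENCODE M21 genes.

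Here peaks were merged from 1 bp of overlap. An OCR was placed in the 100-kb bin of its midpoint, and adjoining bins were those next to a dense bin. Bins, and protein-coding promoters within 1 kb of the gene start, were compared in each library. Only the differences between promoters were tested, with an exact sign-flip permutation over the 7 libraries. Promoters at any transcript start of the gene were added after seeing the data. Motifs were searched on both strands within 100 bases of the summit of the strongest peak, in the reference sequence. The rule for dense bins, the gene lists and the rule for what is named were chosen with earlier results of these data known. Named are the 12 bins with the most shared distal OCRs, the 5 with the highest summed intensity, the 5 longest runs, the 6 bins with the most OCRs and no protein-coding start, bins at the threshold, genes that start in them, and list genes in dense bins. The most variable bin and a steady one were named after their values were seen. Some genes that these rules name are not reported here. The scripts used pandas 2.3.3, numpy 2.4.6, scipy 1.17.1 and matplotlib 3.10.9 in Python 3.11.15, and merging, distances, the choice of bins and the permutation were checked on simulated data, with bedtools 2.31.1 for comparison. As alternatives, lists were cut at a -log10 q of 5 or to equal length, and the others were peaks that cover 50% of an OCR, a distance of 10 kb, other placement of OCRs and bins, 12 or more OCRs, leaving out chromosomes 1, 8 and 17, promoters of 3 kb, and leaving out each library.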

Additional observations from a re-analysis of the deposited data

Results flagged for a closer look

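The share of open promoters in dense bins was 84.6% in HPC7-1, apart from the other 6 libraries, of which the next was at 82.4%. The gap was 0.571 of the range over the 7 libraries. HPC7-1 also had the longest peak list, with 132852 peaks, and the part of this in the share was not tested. It was the only one of 21 values examined in this way that stood apart so far, and chance gives about 1 in 20. Without HPC7-1, and with the bins chosen again from the other 6 lists, dense bins exceeded other bins by 31.0 percentage points.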

How the results depend on the processing

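In all 98 values were recomputed under an alternative. In 90, tested differences kept their direction and their side of 0.05, whatever their size, numbers of bins stayed within 1.5 times, and the distal intensity moved by less than 1 SD. The number of dense bins was 380 when peaks had to cover 50% of a shared OCR, 319 at more than 10 kb from a transcript start and 172 with 12 or more OCRs, against 970, and all of these were among the 970. Leaving out each library in turn gave between 972 and 1266 dense bins, the most without HPC7-6. The log10 difference in distal intensity between dense and other bins was 0.0927 with 50% cover and 0.0307 with 12 or more OCRs, and between 0.0426 and 0.0601 without each library. The log10 difference in promoter intensity between dense and adjoining bins was -0.00985 at more than 10 kb (exact permutation p = 0.188), -0.0162 with bins moved by 50 kb and 0.00560 with 12 or more OCRs (exact permutation p = 0.250), and the cause was not tested. Without each library it was between 0.0436 and 0.0606, and that against other bins between 0.0472 and 0.0678, with p = 0.0312 in the exact permutation test, the smallest that 6 libraries allow. The difference in promoter intensity from other bins was between 0.0110 and 0.0795 over the other alternatives. The differences in the share of open promoters were between 23.9 and 31.7 points from other bins and between 2.30 and 9.41 points from adjoining bins, and without each library between 30.1 and 31.2 and between 8.52 and 9.55. With any transcript start of the gene they were 30.2 and 7.45 points. No paired analysis was made because the labels give 1 condition for all libraries, so that no labelled groups could be matched by number. What the name prefixes stand for is not known, and they were not used as groups. The tests compare classes of bins within each library. The lists give no read depth, so weak OCRs missed in short lists cannot be told apart from closed ones.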
